A study of Mus musculus with 24 samples.

Results

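The comparison described here sets 3 libraries with the letter L in the names of their deposited tables against 3 with the letter D there, all from Ocy454 cells harvested at 2 h. Ocy454 is an established mouse osteocytic cell line. These are 6 of the 24 libraries of the series, chosen by the file code and not by any measured value. The letters are exchanged between the 2 sets of labels. The file-code L libraries carry the title code D and are described as treated with 1,25D (1,25-dihydroxyvitamin D, the active vitamin D hormone). The file-code D libraries carry the title code L and are described as treated with LPA (lysophosphatidic acid). Every direction below is file-code L relative to file-code D, and "higher" or "lower" without further words means in file-code L. The remaining groups at 2 h, used here as reference levels, were 3 vehicle libraries and 3 libraries given both agents, and the same 4 groups were harvested at 8 h. The sources used here give neither doses nor culture conditions, and whether replicate libraries stem from separate cultures is not stated. The p-values therefore set differences against the spread between replicate libraries, estimated from all 24 libraries, and that spread may be technical. The series set out to learn how LPA and 1,25D act on the synthesis of FGF23, a hormone of bone that lowers blood phosphate, and which signalling pathways take part.

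The agents act by different routes. LPA is a lipid mediator that binds G protein-coupled receptors on the cell surface. Those receptors couple to calcium, phospholipase C and the ERK cascade, and within minutes the cell begins to transcribe immediate early genes, many of which encode transcription factors or the phosphatases that end the signal. The vitamin D hormone enters the cell and binds the vitamin D receptor, a nuclear receptor that pairs with a retinoid X receptor on DNA, and its textbook target in many tissues is the 24-hydroxylase gene Cyp24a1. Osteocytes are the cells embedded in bone matrix. They sense load and secrete FGF23, sclerostin and the osteoclast factor RANKL.

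The 6 libraries held 33.51 to 33.83 M estimated counts each, so depth was nearly even, and 21077 to 23029 genes were detected per library. The share of mitochondrially encoded transcripts was 11.15 to 11.71% in file-code L, 10.68 to 13.34% in file-code D and 9.01 to 11.51% in vehicle. The first principal component of the 6 libraries, with 35.5% of the variance, separated the file-code L from the file-code D libraries. The second component (18.5%) set file-code L replicate 3 apart from the rest. Of 18 osteocyte markers, 12 had enough counts to test, and their levels were uneven. Dmp1, a matrix protein gene of osteocytes, had 286 counts over the 3 file-code L libraries and 229 over the 3 file-code D libraries, and Phex, the phosphate-regulating endopeptidase gene, had 91 and 43. Sost, which encodes sclerostin, had 6 and 1, and Mepe had none in either group. Other members of the list had many counts, among them Gja1 (24711 and 21684), Pdpn (9529 and 9249) and Mmp14 (39121 and 28914). Markers of other cell types were scarce, and Adipoq, Kdr and Myod1 were among those too low to test. Summed levels cover only the markers with enough counts to test. The 1 tested adipocyte marker of 6, Fabp4, stayed at or below 0.337 CPM (counts scaled to library size) in each of the 6 libraries. The 2 tested chondrocyte markers of 6 summed to at most 2.15 CPM, and the 3 tested endothelial markers of 6 to at most 2.75 CPM. The 5 tested of 8 markers of macrophages and blood cells summed to 40.3 to 41.6 CPM in file-code L and 34.6 to 36.8 CPM in file-code D. The 3 tested of 6 skeletal muscle markers summed to 4.57 to 5.30 CPM in file-code L, 3.41 to 4.02 CPM in file-code D and 3.35 to 5.13 CPM in vehicle. Of these 3, 1 was higher, Acta1 (0.75), with a list median of 0.75. The Acta1 call was lost without file-code L replicate 2 (adjusted p = 0.088) and without file-code D replicate 2 (0.064). Of 5 tested blood cell markers, Cd14 was higher (0.66) and Lyz2 lower (-0.56), the leukocyte marker genes Ptprc and Adgre1 were too low to test, and the part of such cells in the results was not tested. In bulk RNA, fewer cells of a type and less RNA per cell cannot be told apart.

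A total of 2967 of 16424 genes tested (18.1%) had an adjusted p under 0.05 by the quasi-likelihood test of edgeR with Benjamini-Hochberg adjustment, 1421 higher (8.65%) and 1546 lower (9.41%). The counts were close to even, but the sizes were not. Of the genes that passed, 318 were at least 2-fold higher (1.94% of genes tested) and 102 at least 2-fold lower (0.621%). The median log2 fold change over all genes tested was -0.02. Without a filter on low counts the split was 1956 higher and 1206 lower, so 61.9% of calls were higher in place of 47.9%. Both groups were also set against the same 3 vehicle libraries, so those comparisons share samples with each other and with this one. There, file-code L had 2285 genes past the threshold (13.9%, with 7.06% higher), file-code D had 129 (0.785%, with 0.597% higher), and the libraries given both agents had 3267 (19.9%, with 9.88% higher). The 12 largest rises, among genes of at least 1 CPM with a gene name and no overlap between the groups, included Il6, Egr3, Egr2, Npas4, Nr4a1, Spry2, Ereg, Fosb, Sema7a, Egr1 and Fos. The 12 largest falls were Klhl33, Atoh8, Neu3, Ints9, Bmf, Kcne4, Zfp273, Zfp953, Zfp108, Crebl2, Nfe2 and Ksr1.

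**Figure D1:**
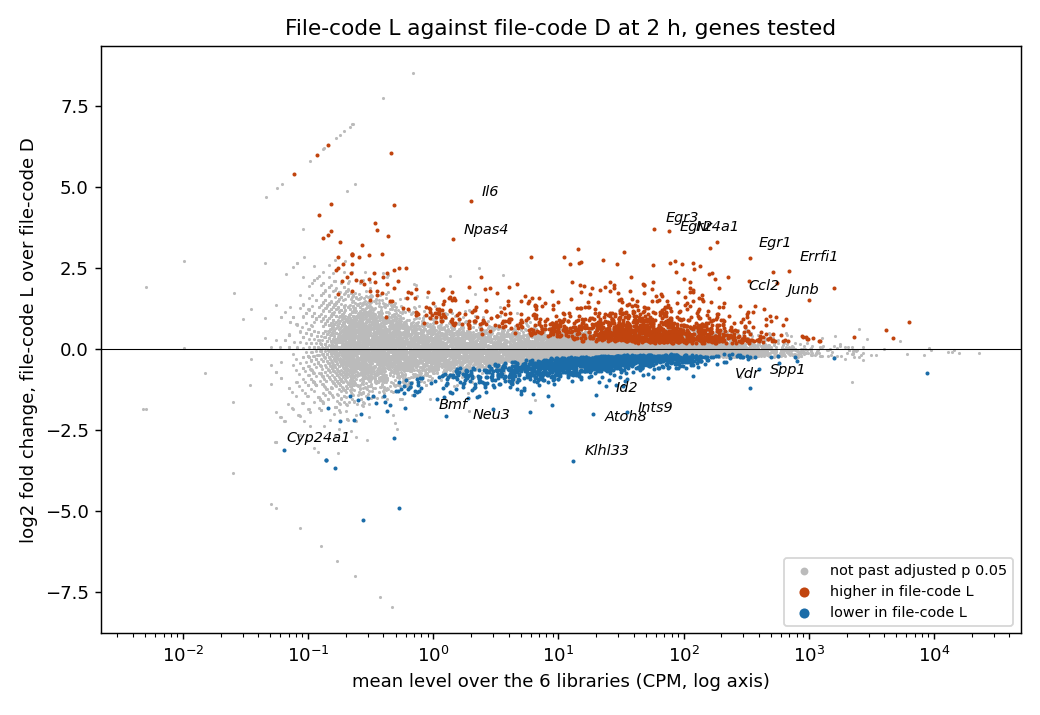
Log2 fold change of file-code L over file-code D at 2 h (vertical axis) against the mean level over the 6 libraries in CPM (horizontal axis, log scale), 1 point per gene tested. Orange points are the 1421 genes higher in file-code L and blue points the 1546 lower, both past adjusted p 0.05, and grey points did not pass. Named rises reach a log2 fold change of 4.55 (Il6), and Klhl33 (-3.45) lies apart from the other named falls.

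The rises were led by genes that many extracellular signals switch on within minutes, and the promoters of 4 of them are shown because the letters of well-known response elements can be read in them. They are the 4 with the largest log2 fold changes among the EGR, AP-1 and NR4A members whose windows were taken from RefSeq's promoter table. Each window is the 250 bases before a RefSeq start in GRCm38.p6, printed 5′ to 3′ on the strand of the gene. The deposited tables were made on mm39, so these positions are RefSeq's and not the submitters'. Capitals mark the CArG box, the element bound by serum response factor, and TGACG or its reverse complement CGTCA, the shorter form of the cyclic AMP response element.
Egr2, chr10:67537680-67537929 (+): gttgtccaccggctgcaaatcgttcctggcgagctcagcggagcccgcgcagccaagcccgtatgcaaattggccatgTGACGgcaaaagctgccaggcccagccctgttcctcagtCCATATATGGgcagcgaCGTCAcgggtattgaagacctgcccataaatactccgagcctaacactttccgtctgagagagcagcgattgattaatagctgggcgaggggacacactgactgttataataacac
Npas4, chr19:4989972-4990221 (-): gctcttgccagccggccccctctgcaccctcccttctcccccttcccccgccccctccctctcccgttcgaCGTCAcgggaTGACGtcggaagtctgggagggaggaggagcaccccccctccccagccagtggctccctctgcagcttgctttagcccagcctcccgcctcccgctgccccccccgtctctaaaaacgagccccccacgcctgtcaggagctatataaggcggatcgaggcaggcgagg
Nr4a1, chr15:101266596-101266845 (+): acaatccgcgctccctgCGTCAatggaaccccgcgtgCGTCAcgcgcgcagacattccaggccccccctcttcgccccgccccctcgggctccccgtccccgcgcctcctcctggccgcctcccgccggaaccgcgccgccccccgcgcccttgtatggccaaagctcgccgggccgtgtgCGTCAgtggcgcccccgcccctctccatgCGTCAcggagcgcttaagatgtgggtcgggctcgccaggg
Fosb, chr7:19310046-19310295 (-): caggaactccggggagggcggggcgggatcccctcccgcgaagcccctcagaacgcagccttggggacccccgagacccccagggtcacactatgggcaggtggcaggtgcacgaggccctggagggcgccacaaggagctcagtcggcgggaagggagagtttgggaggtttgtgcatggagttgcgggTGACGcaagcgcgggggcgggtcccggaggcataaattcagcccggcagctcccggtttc
The Egr2 window, taken at the most downstream of 5 listed starts, holds 1 CArG box beginning 133 bases before the start and 2 copies of the shorter element, and 4 of the 5 Egr2 windows hold a CArG box. Nr4a1 holds 4 copies of TGACG on either strand, Npas4 2 and Fosb 1. Of 29 members of the EGR, AP-1 and NR4A lists that were higher in file-code L, 22 had a window. TGACG lay in the windows of 16 of these 22 genes (72.7%), against 28.9% of 11459 tested genes with a window and 19.8% of all 27025 genes of the table. A CArG box lay in 2 of the 22 (9.09%), against 1.41% of tested genes and 1.62% of the table. The NF-kB site lay in 8 (36.4%), against 10.3% and 8.23%. The full cyclic AMP response element lay in 2 (9.09%), against 2.85% and 1.77%, and the EGR site also in 2, against 1.18% and 0.622%. The AP-1 site TGANTCA lay in none, against 6.09% and 7.82%. The searches covered both strands, a full cyclic AMP response element also counts as TGACG, and a match describes the letters of a window and says nothing of binding.

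The EGR genes encode zinc finger transcription factors, and the NAB genes the corepressors that bind them. Of 5 tested members, 4 were higher and none lower, with a median log2 fold change of 2.80 against -0.02 over all genes tested. Such counts, here and for the lists below, stand beside 8.65% higher and 9.41% lower over all genes tested. Egr2 stood at 128, 139 and 156 CPM in the 3 file-code L libraries and at 11.4, 10.8 and 11.8 CPM in the 3 file-code D libraries. The lowest file-code L library was over 10 times the highest file-code D library, and the log2 fold change was 3.64 ± 0.11 (SE, adjusted p = 1.1e-15). Vehicle stood between them, at 18.6, 17.2 and 17.1 CPM, and the libraries given both agents at 67.1, 62.4 and 66.0 CPM. Egr2 was lower in file-code D than in vehicle (log2 fold change -0.64 ± 0.10, adjusted p = 0.0018) and higher in file-code L than in vehicle (3.0). Egr3 stood at 115, 111 and 98.2 CPM in file-code L and 8.82, 7.36 and 8.88 CPM in file-code D, 3.69 ± 0.25 on the log2 scale. Egr1 measured 665, 580.4 and 520.0 CPM against 89.9, 66.0 and 96.6 CPM (2.80 ± 0.25). Per length, the mean file-code L level was 202 TPM (a level scaled by transcript length and library size) for Egr1, 130 TPM for Egr2 and 46.3 TPM for Egr3. None of the 3 genes overlapped between the groups, and 21.1% of all genes tested likewise had file-code L above file-code D without overlap. Nab1 was higher by 0.32 (adjusted p = 0.0037), a call lost with counts from length-scaled TPM (adjusted p = 0.12) and without a filter on low counts (0.060). Nab2 was at 0.47 ± 0.22 (adjusted p = 0.15), and Egr4 had too few counts to test.

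AP-1 is the dimer of FOS and JUN proteins and their relatives. Of 11 tested members, 9 were higher and 1 lower, with a median log2 fold change of 1.98. Fosb stood at 20.4, 18.3 and 19.2 CPM in file-code L and 2.46, 2.85 and 2.78 CPM in file-code D, a log2 fold change of 2.84 ± 0.21 (adjusted p = 1.5e-09). Fos measured 42.9, 35.9 and 39.0 CPM against 7.17, 4.03 and 6.35 CPM (2.75 ± 0.18), and Fosl1 273, 305 and 268 CPM against 52.9, 58.8 and 57.3 CPM (2.32 ± 0.09). The file-code D libraries overlapped vehicle for both, with vehicle at 6.48, 6.05 and 7.78 CPM for Fos and 63.3, 56.4 and 58.8 CPM for Fosl1. Atf3, the stress-responsive partner of JUN, was at 44.2 ± 0.326 CPM against 11.2 ± 0.846 CPM (mean ± SD, n = 3; log2 fold change 1.98 ± 0.11). Jund, which is expressed constitutively in many cells, was at 0.67 ± 0.25 (adjusted p = 0.071). The lower member was Jdp2, an AP-1 repressor, at -0.59 ± 0.18 (adjusted p = 0.027). Jdp2 lost the call when any 1 of the 6 libraries was left out, with adjusted p between 0.053 (without file-code L replicate 3) and 0.10 (without file-code L replicate 2).

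The NR4A genes encode orphan nuclear receptors induced without a known hormone, and they were listed with other activity-regulated genes. Of 18 tested members, 16 were higher and 1 lower, with a median of 1.57. Nr4a1 stood at 312, 344 and 351 CPM in file-code L and 38.0, 28.8 and 35.2 CPM in file-code D, against 46.6, 39.2 and 37.8 CPM in vehicle. The log2 fold change of file-code L over file-code D was 3.30 ± 0.17 (adjusted p = 4.2e-12). Npas4, a transcription factor gene known from neurons that respond to calcium, was low in level, at 2.91, 2.76 and 2.18 CPM against 0.260, 0.242 and 0.242 CPM (3.38 ± 0.45). Its groups did not overlap, as for the 21.1% of all genes tested that had file-code L above file-code D. Arc, another gene known from active neurons, stood at 206, 204 and 199 CPM against 34.7, 31.9 and 31.3 CPM (2.64 ± 0.17). Ier3 (2.47 ± 0.10), the antiproliferative gene Btg2 (2.05 ± 0.09) and the leucine zipper repressor gene Nfil3 (1.68 ± 0.08) were also higher. The lower member was Gadd45a, a growth arrest gene, at 18.7, 21.3 and 20.7 CPM in file-code L and 26.1, 27.4 and 26.2 CPM in file-code D (-0.39 ± 0.08, adjusted p = 0.00099). Vehicle had 15.5, 17.1 and 15.2 CPM of Gadd45a, below both treatments, so the direct comparison set a smaller rise against a larger one (0.34 and 0.74 on the log2 scale).

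**Figure D2:**
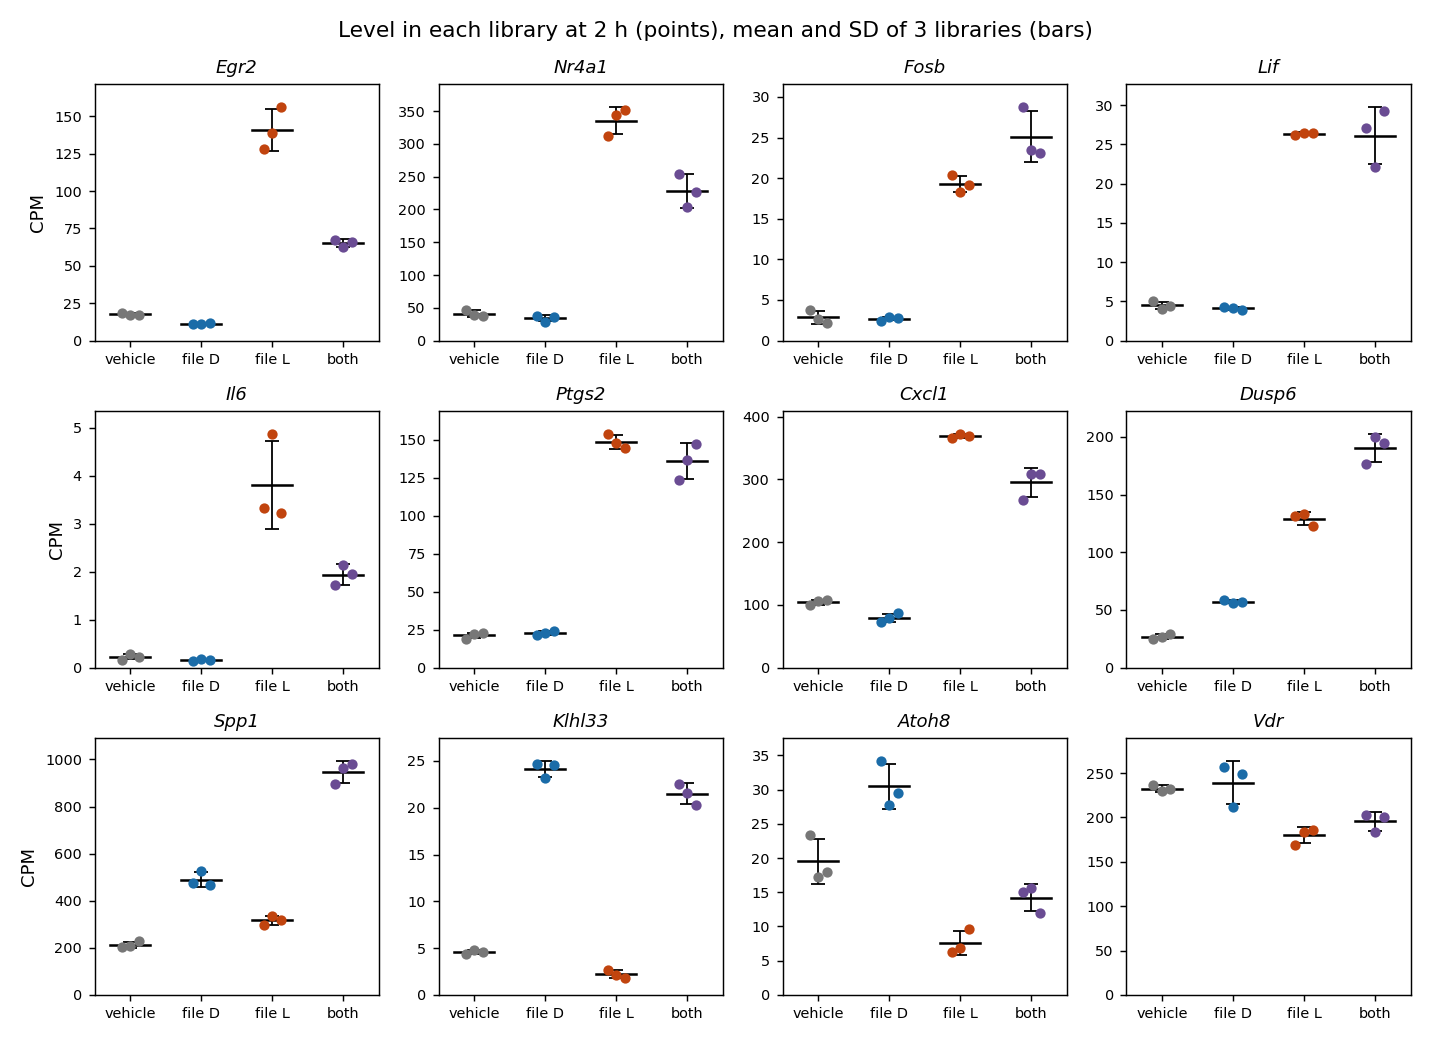
Level in CPM (vertical axes, from 0) of 12 genes in each of the 12 libraries at 2 h, grouped as vehicle, file-code D, file-code L and both agents. Points are libraries, and bars are the mean and SD of 3. Egr2, Nr4a1, Fosb, Lif, Il6, Ptgs2 and Cxcl1 are high with file-code L and with both agents, Dusp6 and Spp1 lie above vehicle with either agent, and Klhl33 is high with file-code D and with both agents.

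Krüppel-like factors and C/EBP factors make up a further layer of inducible transcription factors. Of 12 tested Krüppel-like factor genes, 8 were higher and none lower (median 0.64). Klf6 stood at 253, 262 and 243 CPM against 119, 122 and 123 CPM (1.06 ± 0.07, adjusted p = 4.1e-10), Klf5 at 87.6 ± 8.04 against 24.4 ± 1.79 CPM (1.84 ± 0.22) and Klf4 at 1.52 ± 0.22. Klf3 did not pass, and was at -0.07 ± 0.09 (adjusted p = 0.62). Of 8 tested C/EBP and Tribbles genes, 3 were higher and 1 lower (median 0.06). Trib1, a pseudokinase gene that targets C/EBP proteins for degradation, stood at 50.3, 53.1 and 49.2 CPM against 8.59, 8.27 and 8.10 CPM (2.61 ± 0.16, adjusted p = 8e-11). Cebpd (2.06 ± 0.25) and Cebpb (1.16 ± 0.30) were higher, and Cebpg (0.11 ± 0.08) and Cebpz (0.01 ± 0.09) did not pass. Trib2, the lower member, was at -0.43 ± 0.12 (adjusted p = 0.016), and lost the call without file-code L replicate 2 (adjusted p = 0.097), without file-code D replicate 2 (0.094), without file-code D replicate 3 (0.053) and with counts from length-scaled TPM (0.067).

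ERK is the last kinase of a MAPK cascade, and its phosphatases (DUSP) and the Sprouty and Spred proteins restrain it. Of 15 tested genes of this kind, 11 were higher and 1 lower, with a median of 0.81. Spry2 stood at 24.4, 26.0 and 26.8 CPM in file-code L, 3.38, 2.36 and 3.35 CPM in file-code D and 3.92, 4.37 and 4.75 CPM in vehicle, a log2 fold change of 3.08 ± 0.20 for file-code L over file-code D (adjusted p = 2.1e-10). Dusp4, a nuclear ERK phosphatase gene, measured 21.3, 21.8 and 21.0 CPM against 3.70, 3.03 and 3.72 CPM (2.62 ± 0.18). Dusp6, the cytoplasmic ERK phosphatase gene, differed by less, at 131, 133 and 123 CPM against 58.5, 56.2 and 57.2 CPM (1.17 ± 0.08, adjusted p = 2.5e-10). Its 3 vehicle libraries had 25.2, 26.3 and 29.0 CPM, so Dusp6 was above vehicle in file-code D too (1.09 ± 0.08, adjusted p = 1e-08), and the libraries given both agents had 177, 199.7 and 194 CPM. Dusp10, a phosphatase gene of JNK and p38, was at 0.64 ± 0.08. Dusp14 passed with a lower level (-0.31 ± 0.11, adjusted p = 0.049), and its adjusted p ranged from 0.021 without file-code L replicate 3 to 0.18 without file-code L replicate 2. It was also above 0.05 without file-code L replicate 1 (0.18) and without file-code D replicates 1 (0.077), 2 (0.14) and 3 (0.091). Of 10 tested ETS factor genes, which ERK signalling activates, 5 were higher and 1 lower (median 0.64). Ets1 stood at 100.5 ± 2.80 against 56.0 ± 2.99 CPM (0.84 ± 0.06) and Erf, an ETS repressor gene, at 1.20 ± 0.23. Etv5 was the lower member, at 21.5, 21.6 and 21.7 CPM against 31.0, 26.3 and 29.5 CPM (-0.42 ± 0.07, adjusted p = 0.00033). Its file-code L libraries lay beside vehicle (19.4, 21.6 and 19.6 CPM).

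The EGF receptor binds a family of ligands that cells shed from their own surface. Of 14 tested genes of receptors, ligands and feedback, 5 were higher and none lower (median 0.37). Ereg, which encodes the ligand epiregulin, stood at 58.0, 67.4 and 54.0 CPM in file-code L and 7.84, 6.79 and 7.95 CPM in file-code D (2.99 ± 0.17, adjusted p = 4e-11). Hbegf, the gene of heparin-binding EGF, measured 38.0, 38.4 and 35.4 CPM against 10.2, 9.37 and 10.5 CPM (1.90 ± 0.11), and Nrg1, the neuregulin gene, 67.0 ± 2.10 against 29.8 ± 1.94 CPM (1.17 ± 0.11). Errfi1, whose product inhibits the receptor, stood at 1118, 1193 and 1167 CPM against 210.4, 210.4 and 232 CPM (2.41 ± 0.08, adjusted p = 1.1e-14). The Errfi1 libraries of file-code D lay above vehicle (147, 159 and 160.2 CPM; 0.49 ± 0.08, adjusted p = 0.0018). The receptor gene Egfr itself was at 91.3 ± 5.84 CPM in file-code L and 91.3 ± 7.82 CPM in file-code D, and its groups overlapped.

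Genes of the actin cytoskeleton that serum response factor and its MRTF cofactors drive were higher in 17 of 22 tested cases and lower in none, with a median of 0.58. Vcl, the gene of the focal adhesion protein vinculin, stood at 721, 773 and 679 CPM in file-code L, 366, 357 and 374 CPM in file-code D and 359, 377 and 383 CPM in vehicle (0.99 ± 0.06, adjusted p = 4.9e-11). Lima1 (0.90 ± 0.08), the smooth muscle gene Tagln (0.82 ± 0.10) and Fhl2 (0.73 ± 0.08) also passed, and these 4 had the smallest p-values of the list rather than its largest changes. Tpm4 (0.11 ± 0.09) and Cnn2 (0.15 ± 0.08) did not pass. Targets of YAP and TEAD, the effectors of the Hippo pathway, were higher in 12 of 20 tested cases and lower in none (median 0.72). Ccn1, a secreted matricellular protein gene, measured 1459, 1375 and 1615 CPM against 563, 483 and 511 CPM (1.51 ± 0.11), and its relative Ccn2 101, 98.7 and 105 CPM against 34.7, 30.7 and 33.6 CPM (1.62 ± 0.10, adjusted p = 6.2e-11). F3, which encodes tissue factor, stood at 174 ± 10.2 against 51.6 ± 2.64 CPM (1.75 ± 0.09). Of the YAP and TEAD targets, Arhgef17 (0.56 ± 0.24, adjusted p = 0.11) and Amotl2 (0.44 ± 0.23, adjusted p = 0.20) did not pass.

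Secreted inflammatory mediators included the largest rise. Il6, which encodes interleukin 6, stood at 3.34, 4.87 and 3.22 CPM in file-code L and 0.145, 0.182 and 0.151 CPM in file-code D, 23.4-fold apart in the fit (log2 4.55 ± 0.47, adjusted p = 4.3e-07). The 3 file-code D values lay beside vehicle (0.170, 0.290 and 0.233 CPM), and replicate 2 of file-code L was the highest of its group. Lif, the gene of leukaemia inhibitory factor, measured 26.2, 26.5 and 26.5 CPM against 4.31, 4.09 and 3.93 CPM (2.68 ± 0.12, adjusted p = 4.1e-13). Socs3, which encodes the feedback inhibitor of this cytokine family, was at 133 ± 7.40 against 21.5 ± 1.55 CPM (2.63 ± 0.24), and the receptor gene Osmr at 0.60 ± 0.07. Of 16 tested genes of the IL-6 and IL-12 families, 7 were higher and none lower (median 0.34). Il12a, the p35 subunit gene of interleukin 12, stood at 0.334, 0.434 and 0.276 CPM against 0.405, 0.121 and 0.363 CPM. Its groups overlapped and the difference did not pass (0.23 ± 0.41, adjusted p = 0.75).

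Chemokine genes were higher in 8 of 12 tested cases and lower in 1, with a median of 1.21. Ccl2, the monocyte attractant gene, stood at 729, 873 and 1009.8 CPM in file-code L and 170.4, 172 and 168 CPM in file-code D (2.36 ± 0.12, adjusted p = 3.6e-12). Cxcl1, a neutrophil attractant gene, measured 366, 372 and 369.6 CPM against 72.3, 78.9 and 86.4 CPM (2.22 ± 0.11), and Ccl7 163 ± 14.7 against 37.0 ± 0.813 CPM (2.14 ± 0.11). Cxcl12, the gene of the stromal retention factor, was the lower member, at 708, 713 and 689.9 CPM against 894, 928 and 898 CPM (-0.37 ± 0.07, adjusted p = 0.0004), with vehicle between the groups at 782, 809 and 825 CPM. Subunits and inhibitors of NF-kB, the inflammatory transcription factor, were higher in 15 of 18 tested cases and lower in none (median 0.90). Tnfaip3, which encodes the A20 inhibitor, stood at 156, 156 and 150.0 CPM against 58.6, 54.7 and 61.0 CPM (1.41 ± 0.09), with Nfkbiz at 1.35 ± 0.08 and Nfkbie at 1.31 ± 0.13. Nfkbia, the gene of the classical inhibitor, did not separate. It was at 223, 218 and 211 CPM in file-code L and 204, 228 and 213 CPM in file-code D (0.02 ± 0.09, adjusted p = 0.92), with vehicle at 142, 168 and 167 CPM below both.

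Ptgs2, which encodes the inducible cyclooxygenase of prostaglandin synthesis, stood at 154, 148 and 145 CPM in file-code L, 21.8, 22.5 and 24.4 CPM in file-code D and 19.2, 22 and 22.7 CPM in vehicle. The groups of file-code L and file-code D were far apart (2.70 ± 0.10, adjusted p = 3.3e-14). The prostaglandin E2 receptor gene Ptger4 was higher as well (1.41 ± 0.18, adjusted p = 5.7e-06). Of 13 tested genes of prostaglandin synthesis and reception 3 were higher and 2 lower, the median was 0.20, and Pla2g4a (-0.07 ± 0.09) did not pass. The lower members were Ptges, a prostaglandin E synthase gene (-1.05 ± 0.33, adjusted p = 0.03), and the phospholipase gene Pla2g4b (-0.93 ± 0.30, adjusted p = 0.033). Ptges kept the call only without file-code D replicate 3 among the 6 omissions of 1 library (adjusted p 0.040 to 0.098), and lost it in the fit of the compared groups alone (0.055) and without a filter (0.067). Pla2g4b lost it without file-code L replicate 3 (0.12, log2 fold change -0.54), without file-code D replicates 1 (0.068), 2 (0.059) and 3 (0.11), in the fit of the compared groups alone (0.063) and with counts from length-scaled TPM (0.094). Ptgs1, the constitutive cyclooxygenase gene, was higher by 0.28 ± 0.08 (adjusted p = 0.025). Its call was lost without file-code L replicates 2 (0.087) and 3 (0.092), without file-code D replicates 1 (0.068) and 3 (0.054), without a filter (0.13) and with counts from length-scaled TPM (0.15). Genes whose products mark short-lived messenger RNAs for decay were higher in 8 of 12 tested cases and lower in none (median 1.03). Zfp36, the tristetraprolin gene, stood at 173, 154 and 170.3 CPM against 26.5, 23.8 and 30.0 CPM (2.63 ± 0.17, adjusted p = 2.1e-10), Zfp36l2 at 2.10 ± 0.25 and Btg1 at 1.33 ± 0.11.

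**Figure D3:**
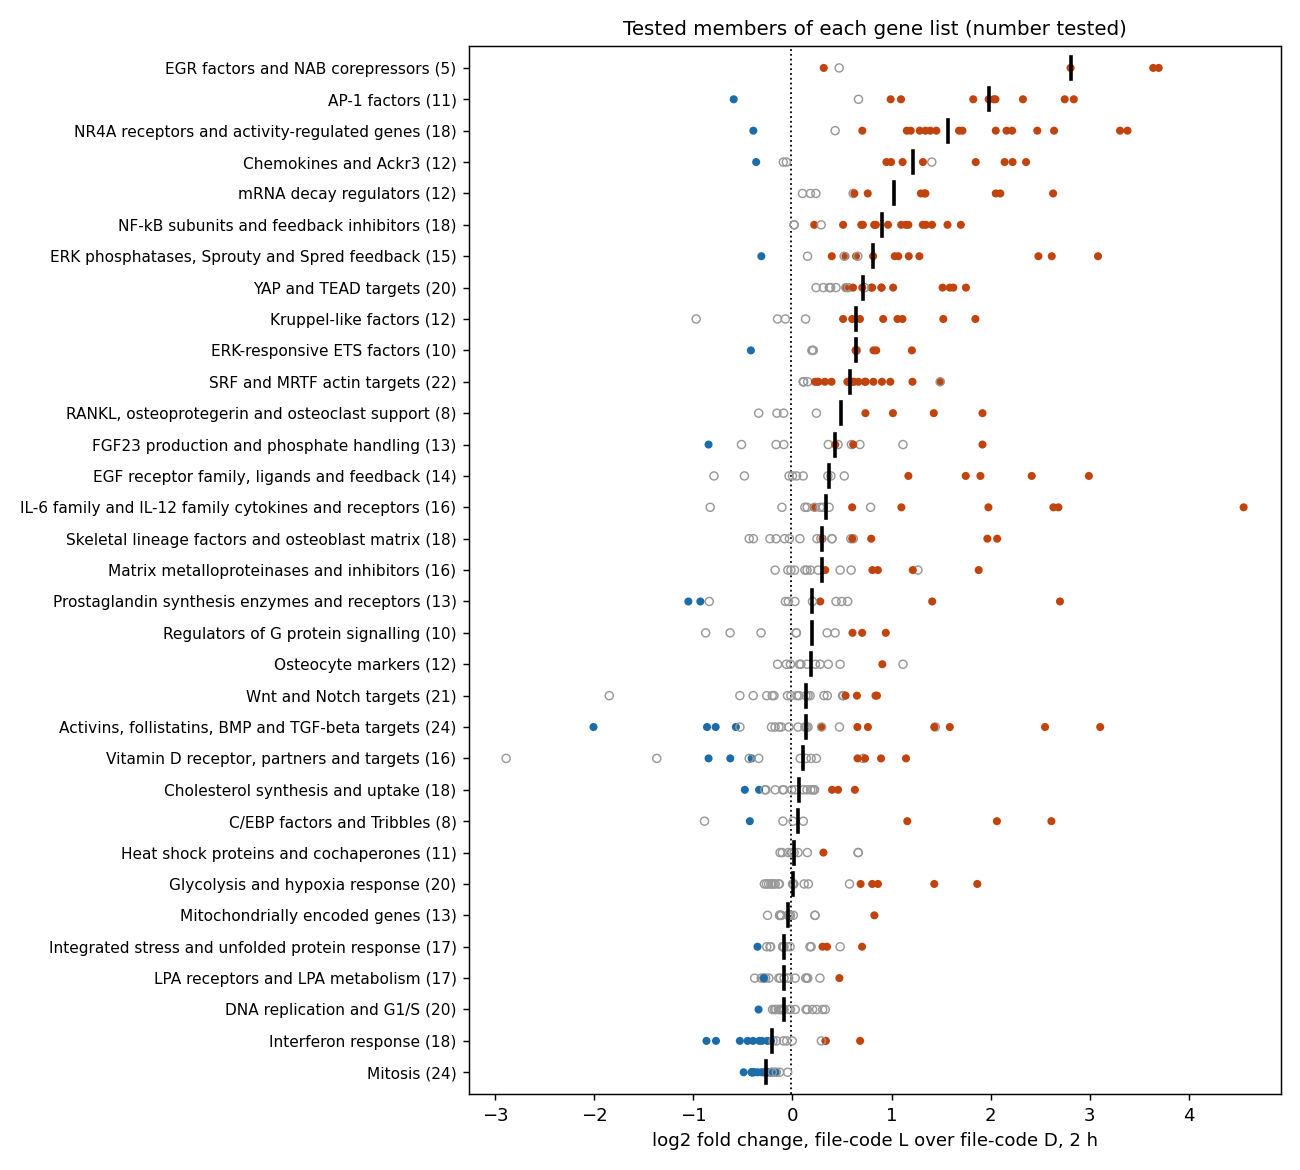
Log2 fold change of file-code L over file-code D at 2 h (horizontal axis) for the tested members of each gene list with at least 5 of them (rows, number tested in brackets, ordered by median). The list of macrophage and blood cell markers, with 5 tested, is left out. Filled orange and blue points passed adjusted p 0.05, open points did not, black bars are list medians, and the dotted line is the median of all genes tested (-0.02). The EGR list has the highest median (2.80) and the mitosis list the lowest (-0.27), and 1 gene may appear in several rows.

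Among the genes of the agents' own receptors and metabolism, the LPA list held few of the calls. Of 17 tested genes of LPA receptors and LPA metabolism, 1 was higher and 1 lower (median -0.09), shares of the list near or below those of all genes. Lpar1, the LPA1 receptor gene, stood at 83.2, 81.6 and 83.8 CPM in file-code L, 60.1, 56.5 and 62.5 CPM in file-code D and 66.4, 64.5 and 71.5 CPM in vehicle (0.47 ± 0.09, adjusted p = 0.00049). The groups did not overlap, as for the 21.1% of all genes tested that had file-code L above file-code D. With counts from length-scaled TPM the adjusted p was 0.064. Agpat2, an acyltransferase gene that consumes LPA, was lower (-0.29 ± 0.09, adjusted p = 0.029). It lost the call without replicate 1 (adjusted p = 0.11) or 2 (0.094) of file-code L, without replicate 1 (0.070) or 2 (0.13) of file-code D, without a filter (0.061) and with counts from length-scaled TPM (0.063).

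Among the vitamin D receptor, its partners and its targets, 16 genes were tested, 4 were higher and 3 lower, with a median of 0.11. Of all genes tested, 8.65% were higher and 9.41% lower. Vdr, the receptor gene, stood at 169, 184 and 186 CPM in file-code L and 257, 212 and 249 CPM in file-code D (-0.41 ± 0.08, adjusted p = 0.00058). Vehicle was at 236, 229 and 232 CPM, so the file-code L libraries lay below vehicle and the file-code D libraries on both sides of it. Cyp24a1 had 0, 0 and 1 counts in the file-code L libraries, 2, 5 and 3 in the file-code D libraries and 1 over the 3 vehicle libraries. The ratio of file-code D to file-code L was 9.96, with a 95% exact counting interval from 1.42 to 432 that covers counting error only. In the edgeR fit, which this gene entered through its 8 h counts, it did not pass (adjusted p = 0.053). The value was 0.033 without file-code L replicate 3, but that omission removes the only count of file-code L and so adds no support. Cyp24a1, which the vitamin D hormone induces in many tissues, thus had its counts mainly in the libraries whose titles and descriptions name LPA, which goes against those labels. Vdr was higher there than in file-code L but not than in vehicle. In the edgeR fit it was at 0.04 in file-code D over vehicle (adjusted p = 0.82) and at -0.37 in file-code L over vehicle (0.0018).

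The other vitamin D targets did not share a direction in file-code L relative to file-code D. Spp1, which encodes the mineral-binding matrix protein osteopontin, stood at 295, 336 and 319 CPM in file-code L and 474, 525 and 468 CPM in file-code D (-0.63 ± 0.10, adjusted p = 6.6e-05). Vehicle was at 202, 206 and 228 CPM, below both, and the libraries with both agents at 895, 965 and 980.4 CPM, above both. Enpp1, whose product makes the mineralization inhibitor pyrophosphate, measured 6.19, 5.58 and 4.14 CPM against 9.71, 8.00 and 10.9 CPM (-0.85 ± 0.17), with vehicle at 4.06, 5.70 and 5.22 CPM beside file-code L. In the opposite direction Cdkn1a, the p21 cell cycle inhibitor gene, stood at 122, 128 and 131 CPM against 56.4, 55.1 and 61.1 CPM (1.15 ± 0.10), the calcium pump gene Atp2b1 at 224, 252 and 195 CPM against 119, 121 and 122 CPM (0.89 ± 0.07), and the thrombomodulin gene Thbd at 118, 128 and 131 CPM against 81.9, 75.1 and 69.8 CPM (0.73 ± 0.08). Thbd lay above vehicle (59.1, 60.5 and 57.0 CPM) in both groups. Against vehicle in the edgeR fit, file-code D did not pass for Cdkn1a (0.03, adjusted p = 0.90) or Atp2b1 (0.15, adjusted p = 0.38). File-code L was above vehicle for Cdkn1a (1.18) and Atp2b1 (1.04). Tnfsf11, which encodes RANKL, was at 2.40, 2.98 and 2.27 CPM in file-code L, 2.20, 2.30 and 1.96 CPM in file-code D and 0.625, 0.753 and 1.84 CPM in vehicle, and the 2 treatments overlapped (0.24 ± 0.27, adjusted p = 0.57). Rxra, the retinoid X receptor gene, did not pass (0.14 ± 0.22).

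Fgf23, the gene whose product the series is about, had 0 counts over the 3 file-code L libraries and 1 over the 3 file-code D libraries, so a difference was not detectable at this depth. Of 13 tested genes of FGF23 production and phosphate handling, 4 were higher and 1 lower (median 0.43). Slc20a1, a phosphate transporter gene, stood at 74.5 ± 3.60 against 48.8 ± 2.69 CPM (0.61 ± 0.08), and Hif1a, the gene of the hypoxia factor that can raise FGF23 transcription, at 254 ± 23.9 against 189 ± 4.30 CPM (0.43 ± 0.07). Furin, the gene of the protease that cleaves FGF23, was at 0.68 ± 0.24 (adjusted p = 0.054), and passed in the fit of the compared groups alone (adjusted p = 2.0e-05), with DESeq2 (0.022), without a filter (2.3e-08) and with the replicate number as a block (0.047).

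Genes that govern osteoclasts from the side of the osteocyte were higher in 4 of 8 tested cases and lower in none. Tnfrsf11b, the gene of osteoprotegerin, the decoy receptor of RANKL, stood at 5.62, 8.06 and 5.52 CPM against 1.36, 2.36 and 1.36 CPM (1.92 ± 0.29, adjusted p = 5.8e-05). Csf1, the macrophage growth factor gene, measured 649 ± 31.1 against 322 ± 16.7 CPM (1.01 ± 0.11). Il1rl1, the gene of the interleukin 33 receptor ST2, stood at 303, 325 and 285 CPM against 109, 110.5 and 120.3 CPM (1.43 ± 0.11), and its ligand gene Il33 at 0.74 ± 0.16. Of 12 tested osteocyte markers, 1 was higher and none lower, a share of rises near the 8.65% of all genes tested. It was Cd44, which encodes a hyaluronan receptor (387 ± 23.4 against 207 ± 11.4 CPM, 0.91 ± 0.07). Of 18 tested skeletal lineage and matrix genes, 5 were higher and none lower (median 0.29). Transcription factor genes among them were Sox9 (2.06 ± 0.22), Twist1 (1.97 ± 0.19), Runx2 (0.79 ± 0.18) and Atf4 (0.30 ± 0.07). The matrix genes Col1a1 (0.29 ± 0.25) and Sparc (-0.08 ± 0.08) did not pass in the same fit.

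Proteases and their inhibitors were higher in 5 of 16 tested cases and lower in none (median 0.29). Adamts1, a versican-cleaving protease gene, stood at 168, 171 and 189 CPM against 52.6, 44.6 and 46.5 CPM (1.88 ± 0.08, adjusted p = 6.6e-13), and the inhibitor gene Timp3 at 646 ± 27.9 against 355 ± 11.8 CPM (0.86 ± 0.07).

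Activin, BMP and TGF-beta genes had calls in both directions. Of 24 tested, 7 were higher and 4 lower, with a median of 0.13. Genes of ligands were among the higher ones. Inhba, the activin A subunit gene, stood at 244, 253 and 194 CPM against 35.8, 38.1 and 44.3 CPM (2.55 ± 0.12, adjusted p = 1.9e-12), and Tgfb2 at 155, 165 and 141 CPM against 49.2, 49.5 and 54.4 CPM (1.59 ± 0.08). Skil, which encodes a repressor of SMAD proteins, was at 0.76 ± 0.09. Among the lower members, Atoh8, a helix-loop-helix factor gene, stood at 6.25, 6.85 and 9.63 CPM in file-code L and 34.1, 27.7 and 29.5 CPM in file-code D (-2.01 ± 0.24, adjusted p = 2.7e-06), with vehicle between them at 23.3, 17.3 and 18 CPM. Id2, an inhibitor of helix-loop-helix factors, measured 35.9, 37.8 and 40.9 CPM against 60.6, 66.0 and 69.4 CPM (-0.77 ± 0.08), and Id3 87.7, 102 and 127 CPM against 151, 164 and 155 CPM (-0.57 ± 0.09). Smad6, an inhibitory SMAD gene, was at -0.86 ± 0.27 (adjusted p = 0.032), with adjusted p from 0.048 without file-code L replicate 1 to 0.11 without file-code L replicate 2, and it was also above 0.05 without file-code L replicate 3 (0.089) and without file-code D replicates 1 (0.070), 2 (0.082) and 3 (0.082). The BMP ligand gene Bmp4 did not pass (-0.18 ± 0.07, adjusted p = 0.072). Targets of Wnt and Notch signalling were higher in 4 of 21 tested cases and lower in none (median 0.14), among them the Notch target Hes1 (0.65 ± 0.13), and regulators of G protein signalling were higher in 3 of 10 and lower in none.

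Among the falls, Klhl33 stood alone in size. This gene of a Kelch-like protein had 2.64, 2.11 and 1.84 CPM in file-code L and 24.7, 23.1 and 24.5 CPM in file-code D, a log2 fold change of -3.45 ± 0.14 (adjusted p = 6.8e-14). Vehicle had 4.40, 4.84 and 4.57 CPM and the libraries with both agents 22.6, 21.6 and 20.3 CPM, so it was above vehicle in file-code D (2.39 ± 0.12) and below it in file-code L (-1.07 ± 0.14). Neu3, the gene of a membrane sialidase, showed the same order, with 2.37, 2.42 and 2.54 CPM in file-code L, 3.84, 4.03 and 4.11 CPM in vehicle and 9.51 ± 1.41 CPM (mean ± SD) in file-code D (-1.96 ± 0.13 for file-code L over file-code D). Kcne4, a potassium channel subunit gene, was at 0.546, 0.496 and 0.583 CPM in file-code L and 1.30, 2.00 and 1.51 CPM in file-code D (-1.56 ± 0.28). Bmf, a proapoptotic BCL2 family gene, had 1.28, 0.775 and 1.81 CPM in file-code L, 5.23, 4.33 and 4.56 CPM in file-code D and 3.92, 3.59 and 3.61 CPM in vehicle (-1.87 ± 0.19). Ksr1, which encodes a scaffold of the ERK cascade, was at 10.7 ± 1.29 CPM in file-code L and 28.9 ± 2.99 CPM in file-code D (-1.43 ± 0.22). Crebl2 was at 4.38 ± 0.450 against 12.1 ± 0.592 CPM (-1.46 ± 0.11). The zinc finger genes Zfp273 (-1.54 ± 0.25), Zfp953 (-1.50 ± 0.22) and Zfp108 (-1.49 ± 0.32) were also among the 12. Ints9, an Integrator complex gene, rested on uneven libraries. It stood at 6.92, 31.9 and 4.54 CPM in file-code L and 55.7, 54.4 and 56.9 CPM in file-code D (-1.95 ± 0.47, adjusted p = 0.0064). Its log2 fold change was -3.28 without file-code L replicate 2 and -1.52 without file-code L replicate 3, and the adjusted p was 0.16 in the fit of the compared groups alone.

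Falls of smaller size were found among mitosis and interferon response genes. Mitosis genes were lower in 16 of 24 tested cases and higher in none, with a median of -0.27, and 21 of the 24 had no overlap, file-code L below file-code D (as did 19.3% of all genes tested). Plk1, the polo-like kinase gene, stood at 77.4, 88.7 and 85.1 CPM in file-code L, 109, 113 and 111 CPM in file-code D and 136, 127 and 135 CPM in vehicle (-0.41 ± 0.07, adjusted p = 0.0002). Ttk, a spindle checkpoint kinase gene, measured 31.4, 27.4 and 29.5 CPM against 38.6, 40.7 and 45.0 CPM (-0.49 ± 0.08), Kif20a was at -0.41 ± 0.08 and the cyclin gene Ccnb1 at -0.39 ± 0.08. Mki67, the proliferation marker gene, was at -0.05 ± 0.11 (adjusted p = 0.80) and overlapped. DNA replication genes did not follow, with 1 of 20 lower, Cdc6 (-0.34 ± 0.08), none higher, and a median of -0.09. Pcna (-0.10 ± 0.08) and Mcm6 (-0.14 ± 0.07) did not pass.

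Interferon response genes were lower in 9 of 18 tested cases and higher in 3 (median -0.21). Stat2, which transduces the interferon signal, stood at 38.7, 35.3 and 36.3 CPM in file-code L, 52.8, 49.2 and 57.3 CPM in file-code D and 59.0, 52.2 and 54.5 CPM in vehicle (-0.53 ± 0.07, adjusted p = 2.8e-05). Ifit3, an antiviral effector gene, measured 7.41, 7.88 and 7.48 CPM against 12.7, 15.4 and 10.8 CPM (-0.77 ± 0.12), and Usp18, a feedback inhibitor gene, 6.38, 3.54 and 4.26 CPM against 8.99, 8.58 and 8.31 CPM (-0.87 ± 0.18). Irf9, the DNA-binding partner of STAT2, was at -0.40 ± 0.08. The higher members included Rsad2, the viperin gene (0.68 ± 0.14), and Irf1 (0.33 ± 0.08), while B2m (-0.00 ± 0.12) and H2-K1 (-0.06 ± 0.09), which present antigen, did not pass.

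Calls in the metabolic and stress lists can be read against 8.65% higher and 9.41% lower over all genes tested. Of 20 tested genes of glycolysis and the hypoxia response, 5 were higher and none lower, and the median was 0.01. Hk2, the inducible hexokinase gene, stood at 42.4, 48.7 and 38.9 CPM against 12, 12.3 and 11.4 CPM (1.86 ± 0.12), Pdk4 at 26.6, 26.1 and 23.3 CPM against 9.89, 8.73 and 9.55 CPM (1.43 ± 0.08) and the glucose transporter gene Slc2a1 at 0.69 ± 0.11. The glycolytic genes Gapdh (-0.20 ± 0.11) and Pkm (-0.17 ± 0.09) did not pass. Cholesterol genes were higher in 3 and lower in 2 of 18 tested cases, with Cyp51 at 0.46 ± 0.07 and Dhcr7 at -0.48 ± 0.08. Of 17 tested genes of the integrated stress and unfolded protein responses, 3 were higher and 1 lower, and the chaperone gene Hspa5 was at -0.02 ± 0.09. Of 11 heat shock genes, 1 was higher, Dnajb1 (0.31 ± 0.08), and none lower. Of 13 mitochondrially encoded genes, 1 passed, mt-Co2, at 8645, 5181 and 10322 CPM against 4934, 3186 and 5501 CPM (0.83 ± 0.23, adjusted p = 0.017). Its groups overlapped, and the call was lost without replicate 1 (adjusted p = 0.059) or 3 (0.10) of file-code L, without replicate 2 (0.12) of file-code D and in the fit of the compared groups alone (0.17).

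The same comparison at 8 h called 2886 genes (17.6%, with 8.27% higher and 9.3% lower), and the difference between the times, 8 h minus 2 h, passed for 2081 genes (12.7%), 1026 higher and 1055 lower. Without file-code D replicate 2 of 8 h it passed for 1207 genes (535 higher, 672 lower), without file-code D replicate 1 of 8 h for 1557 higher and 1035 lower, and without a filter on low counts for 822 higher and 1505 lower. The signed difference, 8 h minus 2 h, was lower at 8 h for 3 of 5 tested EGR and NAB genes, 8 of 11 AP-1 genes and 12 of 18 NR4A and activity-regulated genes, and higher for none of them, where 6.42% of all genes tested were lower and 6.25% higher. Gadd45a, 1 of the 12, was already lower in file-code L at 2 h (-0.39) and more so at 8 h (-0.99). Arc stood at 25.5 ± 0.925 CPM in file-code L and 37.3 ± 7.20 CPM in file-code D at 8 h (mean ± SD, n = 3). Its log2 fold change went from 2.64 at 2 h to -0.55 at 8 h, a difference of -3.19 ± 0.24 (adjusted p = 6.6e-09). Fosb went from 2.84 to -0.16 (difference -3.0 ± 0.30) and Il6 from 4.55 to 0.82 (-3.73 ± 0.88). Dusp6 changed sign. At 8 h it measured 36.6 ± 2.04 CPM in file-code L and 67.4 ± 4.48 CPM in file-code D (-0.88 ± 0.08, adjusted p = 1.8e-08), a difference of -2.05 ± 0.11 from the value at 2 h.

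Some early differences were of similar size at 8 h. Npas4 was at 3.57 ± 0.60, Hbegf at 2.00 ± 0.12, Ccl2 at 2.13 ± 0.12 and Klf6 at 0.96 ± 0.07 at 8 h, and their differences between the times were 0.19 ± 0.59, 0.10 ± 0.16, -0.22 ± 0.16 and -0.10 ± 0.10, none past the threshold. The levels at 8 h were 8.13 ± 1.43 against 2.03 ± 0.327 CPM for Hbegf and 113 ± 6.62 against 25.8 ± 2.25 CPM for Ccl2.

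For the vitamin D list, with 16 tested genes, the difference was lower at 8 h for 7 and higher for none. This count and those below stand beside 6.42% lower and 6.25% higher over all genes tested. Vdr measured 72.3 ± 1.91 CPM in file-code L and 254 ± 6.88 CPM in file-code D at 8 h (-1.81 ± 0.08; difference -1.40 ± 0.11, adjusted p = 1.2e-08). Thbd changed sign, from 0.73 to -1.09, and Tnfsf11 went from 0.24 to -2.25 (difference -2.49 ± 0.39, adjusted p = 0.00018). Cyp24a1 had 1 count over the file-code L libraries and 102 over the file-code D libraries at 8 h. The difference was higher at 8 h, and lower in none, for 6 of 24 mitosis genes, among them Ttk (-0.49 at 2 h and 0.09 at 8 h) and Kif20a (-0.41 and 0.04), and for 5 of 18 interferon response genes, among them Stat2 (-0.53 and -0.00). Id2 went from -0.77 to 0.05.

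**Figure D4:**
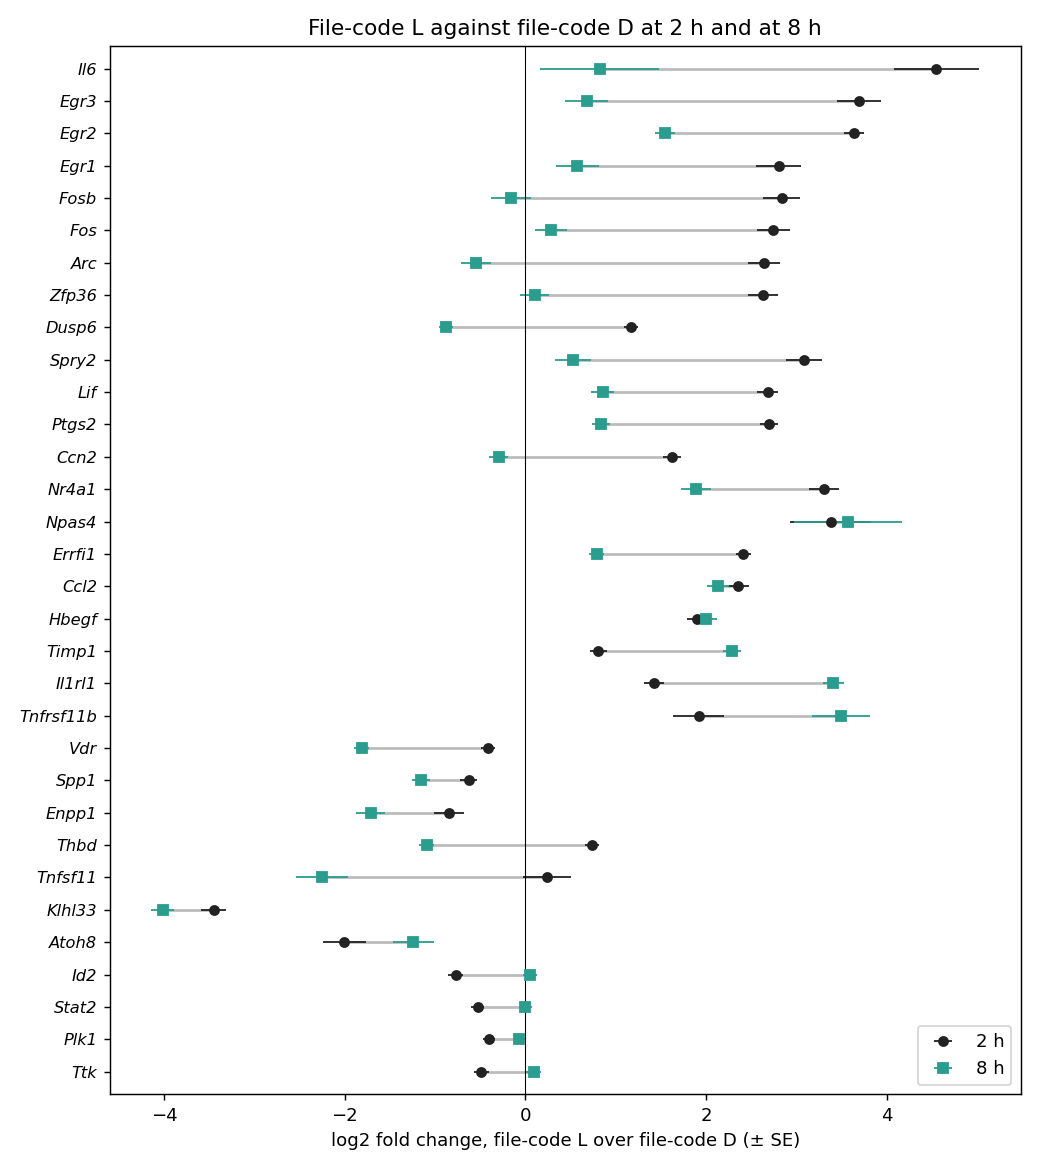
Log2 fold change of file-code L over file-code D (horizontal axis, bars are SE) at 2 h (black circles) and at 8 h (green squares) for 32 genes (rows), from 3 libraries per group and time. Il6, the EGR genes, Fosb, Fos and Arc lie nearer to 0 at 8 h, Npas4, Ccl2 and Hbegf are close at both times, Dusp6 and Thbd cross 0, and Vdr, Tnfsf11 and Klhl33 lie further below 0 at 8 h.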

How the data were processed

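RNA was sequenced from the 6 libraries with DNBSEQ library kits, per the labels' protocols. The deposited tables, 1 per library, give estimated counts and TPM per transcript, per the file headers. The build was mm39, per the submitters' processing notes, and no source used here names the quantifier. Estimated counts were summed per gene (GENCODE M21) and rounded. The TPM values deposited by the authors were used only for levels per length and for 1 alternative. All 24 libraries in 8 groups entered edgeR 4.0.16 (R 4.3.3) with TMM scaling, filterByExpr (minimum count 10), a robust quasi-likelihood fit, Benjamini-Hochberg adjustment over 16424 genes and a threshold of 0.05. CPM values use the TMM-scaled library sizes. Errors of log2 fold changes are SE, and other errors are SD over 3 libraries. The script was tested on simulated data. The spread among replicates was above sampling noise.

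Apart from cell type markers, genes named in the text were drawn from 232 picked by a rule, and not all 232 are described. The rule took the 12 largest differences each way, 5 each way for the change between times, and from each list all members up to 8 tested, otherwise the 4 smallest p-values in each direction and 2 of highest level that did not pass, beside Fgf23, Il12a, Cyp24a1, Vdr, Lpar1 and Klhl33. Members and lists were chosen with earlier results of these data known. Alternatives were DESeq2 1.42.0, median-of-ratios scaling, no filter, the compared groups alone, a replicate block, counts from length-scaled TPM and leaving out each library.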

Additional observations from a re-analysis of the deposited data

Results flagged for a closer look

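The difference between file-code L and file-code D was not the same at 8 h as at 2 h for 2081 genes in edgeR's quasi-likelihood test of 8 h minus 2 h. The largest drops among named genes were those of Cbs (-4.61 ± 0.27 SE, adjusted p = 1.7e-10), Olfm2 (-4.14 ± 0.47), Il6 (-3.73 ± 0.88, adjusted p = 0.0075), Enpp3 (-3.31 ± 0.16) and Arc (-3.19 ± 0.24). Cbs, which encodes the first enzyme of transsulfuration, stood at 0.407 ± 0.0979 CPM in file-code L and 19.9 ± 0.589 CPM in file-code D at 8 h (mean ± SD, n = 3), with a log2 fold change of -0.99 at 2 h and -5.60 at 8 h. Enpp3, an ectonucleotidase gene, stood at 6.48 ± 0.249 CPM and 108.6 ± 4.90 CPM at 8 h, and went from -0.76 to -4.07.

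The largest gains were those of Ttll11 (2.98 ± 0.44, adjusted p = 7.8e-05), Anxa8 (2.46 ± 0.15), Ints9 (2.22 ± 0.64, adjusted p = 0.029), Gpr39 (2.16 ± 0.22) and Il1rl1 (1.98 ± 0.16). Anxa8, an annexin gene, was at 0.03 at 2 h and 2.48 at 8 h, when file-code L stood at 75.1 ± 3.64 CPM and file-code D at 13.4 ± 0.916 CPM. Il1rl1 was higher in file-code L at both times, by 1.43 at 2 h and 3.41 at 8 h. Ints9 had 1 of its 3 file-code L libraries at 2 h far above the others.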

How the results depend on the processing

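Named genes were followed one by one through the alternatives for the comparison at 2 h only. None of them that passed in the main fit or in an alternative changed direction between the 2. Named values at 8 h, against vehicle and for the difference between times were not followed in this way. At 2 h the total ranged from 1927 to 2710 genes when 1 library was left out, with 954 to 1299 higher and 973 to 1411 lower. It was 1952 without file-code L replicate 2 (993 lower) and 1927 without file-code D replicate 2 (973 lower), and the causes were not tested. The fit of the compared groups alone called 4269 genes, 2588 of them higher. DESeq2 called 3312, median-of-ratios scaling 2935 (50.1% higher) and no filter 3162 (61.9% higher, where the main value is 47.9%). Counts from length-scaled TPM gave 2180 calls, of which 2038 were among the 2967, and 9 genes had the opposite sign. For the difference between times, the compared groups alone gave 3374 genes (1627 higher, 1747 lower) and length-scaled TPM 1354 (672 higher, 682 lower). No filter gave 822 higher and 1505 lower. Leaving out 1 library gave 1207 (8 h file-code D replicate 2 left out) to 2592 (8 h file-code D replicate 1 left out), with 535 to 1557 higher and 672 to 1035 lower. Of 232 named genes, 231 kept their side of the threshold with median-of-ratios scaling, and 216 to 223 when 1 library was left out. With length-scaled TPM 217 kept it, and without a filter 209 (15 gained and 8 lost the call). In the compared groups alone 201 kept it (22 gained, 5 lost), and with DESeq2 220 (7 gained). In both of these last fits some of the 232 genes had no adjusted p.

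With the replicate number as a block the count was 2825 at 2 h (1382 higher, 1443 lower) and 1920 for the difference. Deviations of same-numbered libraries of file-code L and file-code D at 2 h correlated at -0.03, -0.03 and -0.04 across genes. Correlations of deviations from means of 3 libraries cannot exclude a shared batch. On the first component of deviations within groups (15.6% of the variance), replicate 1 was negative in all 4 groups at 2 h. Its values were -1.12 (vehicle), -0.42 (file-code L), -0.54 (file-code D) and -0.81 (both agents). At 8 h replicate 1 had both signs, and whether the numbers mark batches was not tested. Genes with few counts, such as Fgf23 and Cyp24a1, are limited by depth.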

Other observations

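Zinc finger genes whose symbols begin with Zfp and a number, a set picked out after values had been seen and given no test, leaned to lower levels in file-code L. Of 363 tested, 124 were lower (34.2%) and 19 higher (5.23%), with a median log2 fold change of -0.24. Over all genes tested, 9.41% were lower and 8.65% higher. The median level of the set was 10.8 CPM, against 15.5 CPM over all genes tested. For 52 of the 363 the difference was higher at 8 h than at 2 h, and for 10 it was lower. Over all genes tested, that difference was higher at 8 h for 6.25% and lower for 6.42%. Solute carrier genes, taken in the same way by symbol, had 26 of 224 higher and 21 lower.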
